A study of Mus musculus with 15 samples.

Results

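The cathepsins, the main proteases of the lysosome, and cystatin C, the secreted protein that blocks many of them, were followed in mouse kidneys with and without a tied ureter. The 10 genes were named by symbol: Ctsa, Ctsb, Ctsc, Ctsd, Ctsh, Ctsk, Ctsl, Ctss, Ctsz and Cst3. All 10 were among the 24421 gene symbols of the count table, and all 10 were among the 16752 genes with enough counts to be tested.

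The study measured kidney RNA of wild-type mice on day 14 after surgery, to learn what an oral silicon-based agent does to renal transcripts. The groups were a sham operation on normal diet (sham, n = 3), unilateral ureteral obstruction on normal diet (UUO, n = 6) and the same obstruction on a diet with the silicon-based agent (UUO_Si, n = 6). No sham group received the agent, so UUO_Si differs from sham in both operation and diet. The labels name neither strain, sex, age, dose nor the side of the kidney taken, and do not say that replicates are separate animals, so p-values measure only the spread between these samples.

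Most cathepsins are cysteine proteases made as inactive precursors, carried to the acid lysosome by mannose 6-phosphate receptors and activated there. Cathepsin D is an aspartic protease and cathepsin A a serine carboxypeptidase. Cystatin C, encoded by Cst3, binds the active site of cysteine cathepsins outside the cell; in the kidney it is filtered by the glomerulus and taken up by proximal tubule cells, which is why its blood level is read as a measure of filtration.

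Library depth, in units of 1000000 counts, ranged from 5.53 to 8.31 over the sham libraries, from 11.2 to 15.42 over UUO and from 7.755 to 11.5 over UUO_Si. Of 1471 olfactory, vomeronasal and trace amine receptor genes, which a kidney should hardly use, 794 to 1268 were detected in 4 libraries and 83 to 136 in the other 11. These 4, called receptor-gene libraries here, were UUO_Si replicate 6, sham replicate 3 and, on normal diet with obstruction, replicates 5 and 6 of UUO. They are triangles in the plots, and for a part of the results the values without them are given too. Levels are CPM, counts per 1000000 of the scaled library size, with SD. Changes are log2 fold changes with SE from edgeR's quasi-likelihood test, adjusted over all 16752 genes and called where the adjusted p was below 0.05.

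In the obstructed kidney 7 of the 10 genes rose, none fell and 3 did not pass the test. Across all genes tested 53.9% were called in this comparison, and 27.5% were called higher. In counts, 4609 of the 16752 genes were called higher and 4427 lower. Cathepsins S, K and C had the largest fold changes, cathepsins D and B about doubled, and cystatin C and cathepsin Z rose less. Cathepsins L, A and H did not pass. The median log2 fold change was 0.85 over the 10 genes and -0.04 over all genes tested. For 6 of the 10 the UUO libraries did not overlap the sham libraries, as held for 46.9% of all genes.

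**Figure D1:**
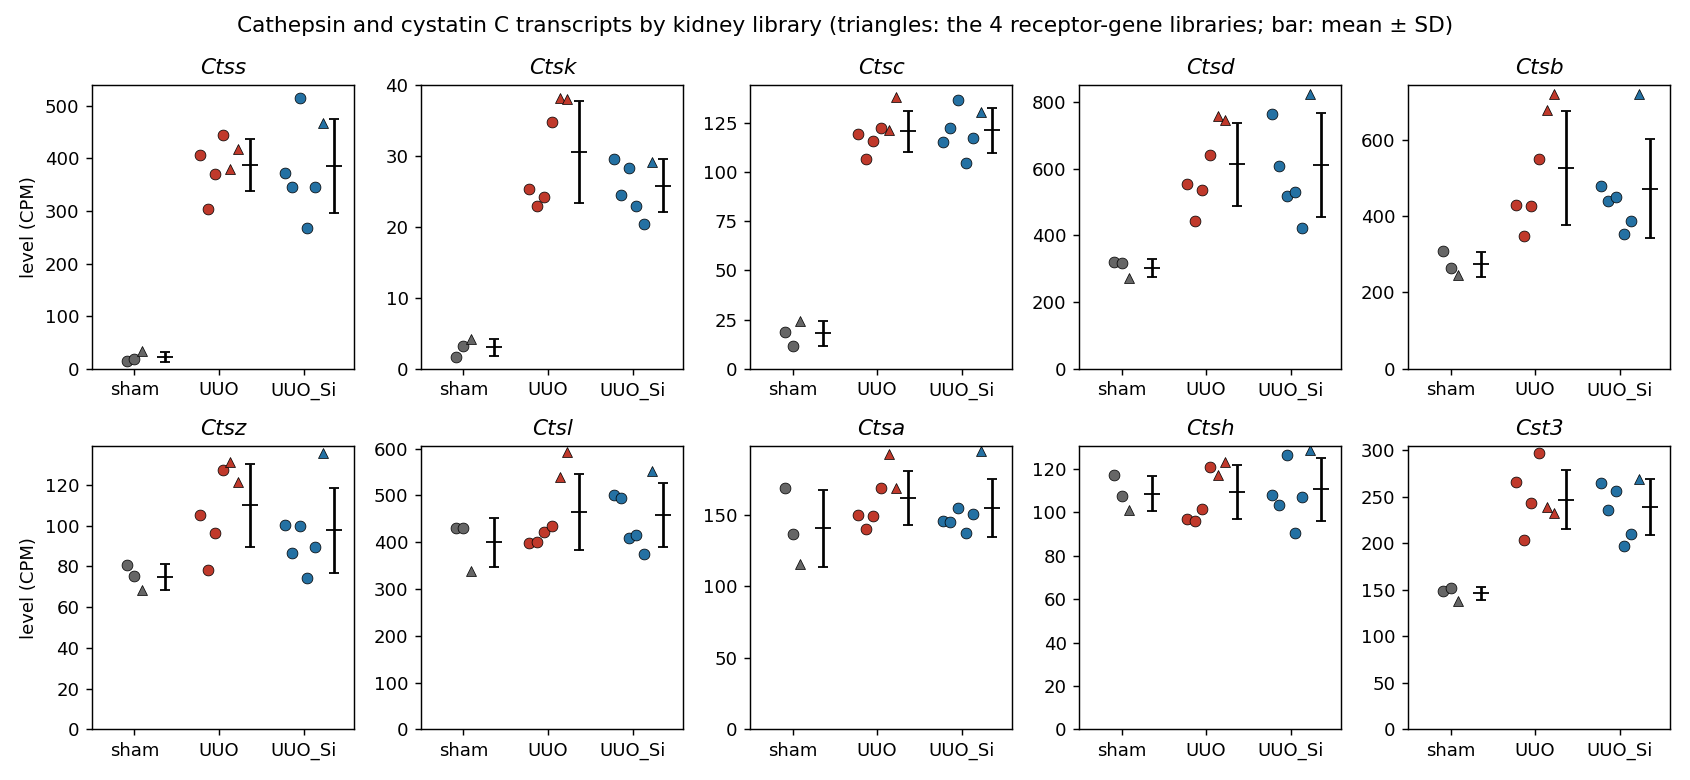
CPM of each gene (vertical axes, starting at 0) in every library by group; circles and triangles are single libraries, triangles the 4 receptor-gene libraries, and bars the mean with its SD. Ctss, Ctsk and Ctsc lie far above sham in every obstructed library, while the Ctsl, Ctsa and Ctsh points of the 3 groups overlap.

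Cathepsin S, an endopeptidase of antigen-presenting cells that trims the invariant chain Cd74 from MHC class II and stays active at neutral pH, rose most. Ctss stood at 14.9, 18.9 and 33.2 CPM in the 3 sham libraries. In UUO its level ran from 303.6 CPM over a median of 393.6 to 444.9. The lowest obstructed library was thus far above the highest sham library, which was the receptor-gene library sham 3. The change was 4.13 ± 0.27 (17.5-fold, 95% interval 11.8 to 26.0; adjusted p = 1.98e-09), and 71 genes called higher had a larger one. Without the 4 receptor-gene libraries it was 4.51.

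Cathepsin K, the collagen-cutting protease best known from osteoclasts and also made by fibroblasts, was rare in sham kidneys. Ctsk was counted 12, 20 and 22 times in the sham libraries, or 1.72, 3.20 and 4.17 CPM. UUO replicates 1 to 3 held 25.3, 23.0 and 24.3 CPM, and replicates 4 to 6 held 34.8, 38.2 and 38.1 CPM. Every UUO library exceeded every sham library, and the 6 fell into a lower and an upper set of 3; of the upper 3, replicates 5 and 6 are receptor-gene libraries. The rise was 3.37 ± 0.28 (10.3-fold, 95% interval 6.89 to 15.5; adjusted p = 2.40e-08).

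Ctsk and Ctss are neighbours. On GRCm38 Ctsk lies on chromosome 3 from 95499256 to 95509362 and Ctss from 95526786 to 95556403, both on the plus strand, 17423 bases apart with 0 annotated genes between them. The RefSeq sequence before each start (GRCm38.p6, plus strand) is shown because the pair rose together and share a locus; the Ctsk stretch is chr3:95499080-95499209, the Ctss stretch chr3:95526662-95526791. In the Ctss stretch the capitals mark a match to the interferon-type motif GAAANNGAAA and one to the PU.1-type motif GAGGAAGT, read on the opposite strand and crossing the start. Both strands were searched from 250 bases before to 50 after each start; 3.44% and 3.2% of 32851 promoters hold these motifs. None of the 6 motifs searched was found in the window of Ctsk.
Ctsk: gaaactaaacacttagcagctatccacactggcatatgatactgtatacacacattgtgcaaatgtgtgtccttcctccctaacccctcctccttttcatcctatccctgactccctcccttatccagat
Ctss: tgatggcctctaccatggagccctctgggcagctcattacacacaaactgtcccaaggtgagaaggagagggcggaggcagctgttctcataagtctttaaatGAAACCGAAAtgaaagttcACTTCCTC
A match to a motif describes the letters and says nothing of a factor bound there.

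Cathepsin C, or dipeptidyl peptidase I, activates the granule serine proteases of neutrophils, mast cells and cytotoxic lymphocytes. Ctsc (chromosome 7, 88278085 to 88310888, plus strand) was at 18.8, 11.3 and 24.1 CPM in sham and from 106.4 over a median of 120.4 to 137.8 CPM in UUO. Its 6 UUO libraries were the most even UUO group of the 10 genes (coefficient of variation 8.50%), and none came near a sham library. The rise was 2.75 ± 0.18 (6.70-fold; adjusted p = 1.68e-09). The Ctsc promoter window also holds 1 match to GAGGAAGT.

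Cathepsin D, the major aspartic protease of the lysosome, and cathepsin B, a cysteine protease that also acts as a carboxydipeptidase, were already abundant in sham kidneys. Ctsd (chromosome 7, 142375911 to 142388038, minus strand) stood at 319.2, 315.8 and 270.7 CPM in sham, and from 441.8 over a median of 598.5 to 758.5 CPM in UUO. The change was 1.02 ± 0.21 (2.03-fold; adjusted p = 0.000494). Its groups did not overlap.

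Ctsb (chromosome 14, 63122462 to 63145923, plus strand) was at 309.2, 264.4 and 245.5 CPM in sham and from 348.4 over a median of 490.1 to 718.6 CPM in UUO, again without overlap. Its change was 0.94 ± 0.24 (1.92-fold; adjusted p = 0.00303). The highest 2 UUO values, 677.3 and 718.6 CPM, were those of the receptor-gene libraries. Without the 4 receptor-gene libraries the change was 0.62 ± 0.16 (adjusted p = 0.00324) for Ctsb and 0.78 ± 0.19 (adjusted p = 0.00286) for Ctsd.

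Cystatin C had a smaller fold change than cathepsins S, K, C, D and B; differences between genes were not tested. Cst3 (chromosome 2, 148871722 to 148875692, minus strand) was at 148.4, 152.2 and 138.1 CPM in sham, the tightest sham group of the 10 genes, and from 203.1 over a median of 241.0 to 296.8 CPM in UUO. The groups did not overlap, and the change was 0.75 ± 0.12 (1.69-fold; adjusted p = 6.86e-05). It was 0.75 without the 4 receptor-gene libraries too.

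Cathepsin Z, a carboxypeptidase also called cathepsin X, was the weakest call. Ctsz (chromosome 2, 174427493 to 174439039, minus strand) was at 80.8, 75.4 and 68.2 CPM in sham and from 78.3 over a median of 113.3 to 131.4 CPM in UUO. The lowest UUO library lay below the highest sham library. The change was 0.55 ± 0.18 (1.47-fold; adjusted p = 0.0146). Without sham replicate 3 it was 0.50 and no longer called (adjusted p = 0.0581).

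Cathepsins L, A and H did not pass. Ctsl (chromosome 13, 64359337 to 64370890, minus strand), a cysteine endopeptidase, was at 430.9, 430.4 and 339.3 CPM in sham and from 398.6 over a median of 429.1 to 593.7 CPM in UUO. The medians were nearly equal, and the difference was 0.22 (95% interval -0.11 to 0.54; adjusted p = 0.244). Without the 4 receptor-gene libraries it was -0.05.

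Ctsa (chromosome 2, 164832873 to 164841032, plus strand) encodes the protective protein that holds the sialidase Neu1 and the galactosidase Glb1 in a complex. It was at 169.1, 136.8 and 115.9 CPM in sham and from 140.2 over a median of 159.4 to 192.8 CPM in UUO (0.20, 95% interval -0.08 to 0.48; adjusted p = 0.218). The highest sham library reached the upper UUO values. Without sham replicate 1 the change was 0.37 and was called (adjusted p = 0.0486). Without the 4 receptor-gene libraries it was 0.00053 (adjusted p = 0.997). Its partners fell: Neu1 by 1.40 on the log2 scale (139 ± 26.4 to 53.0 ± 9.29 CPM) and Glb1 by 0.97 (67.4 ± 12.3 to 34.5 ± 5.27 CPM).

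Cathepsin H, an aminopeptidase, had the difference nearest to 0. Ctsh (chromosome 9, 90054152 to 90076089, plus strand) was at 117.2, 107.6 and 101.0 CPM in sham and from 95.8 over a median of 109.5 to 123.3 CPM in UUO. The sham range lay inside the UUO range. The difference was 0.01 (95% interval -0.24 to 0.26; adjusted p = 0.954), so a rise of over 1.20-fold lies outside the interval.

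The Ctsa and Ctsd promoters are set side by side because both hold the palindrome TCACGTGA, the extended E-box known as the site of the lysosomal regulators Tfeb and Tfe3, while Ctsd rose and Ctsa did not pass. It occurs in 0.974% of all promoters, 2 times in 1 Ctsa window and 1 time in the Ctsd window. The window of the other Ctsa promoter entry held none of the motifs searched. The core of the palindrome, CACGTG, occurs in 7.15% of promoters and was found 1 more time in Ctsd and 1 time in Ctsl. The stretches are chr2:164833758-164833787 on the plus strand for Ctsa, and chr7:142388048-142388077 and chr7:142387908-142387937 on the minus strand for Ctsd. Capitals mark the E-boxes.
Ctsa: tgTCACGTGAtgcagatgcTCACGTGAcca
Ctsd, far: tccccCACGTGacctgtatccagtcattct
Ctsd, near: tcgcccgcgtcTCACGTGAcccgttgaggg
Of the 10 genes 8 had a RefSeq promoter entry; Ctsb and Ctsh were not matched. TGANTCA, the AP-1 motif held by 7.81% of promoters, was in none of the 8. TATAAA, held by 13.6%, was in the Ctss window, at -233 from the start.

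Some counts could include reads of a neighbour, since the strand setting of the counting was not given. Ctsc, Ctsd, Ctsl and Ctss overlap annotated genes whose symbols are not in the count table, for Ctsd, Ctsl and Ctss also on the same strand. Among genes in the count table, Ctsa overlaps Neurl2 and Pltp on the opposite strand, Ctsb overlaps Fdft1, and Ctsz overlaps Nelfcd. Of these Pltp rose (9.94 ± 2.58 to 69.8 ± 9.45 CPM; 2.82 ± 0.19, adjusted p = 3.33e-09), while Fdft1 (0.46, adjusted p = 0.0521), Nelfcd (0.13, adjusted p = 0.322) and Neurl2 (0.11, adjusted p = 0.827) did not pass. Fractional counts, whose origin is not given in the sources used here, were present in 11 libraries for Ctsa, in 9 each for Ctsb and Ctsz, and in 1 for Ctsc. The other 6 genes had whole counts in all 15 libraries.

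Per length, Ctss moved up among the genes. Dividing CPM by the bases of all annotated exons, Ctsd (128 CPM per kb) and Cst3 (116) were the upper genes in sham, followed by Ctsl (61.7), Ctsz (51.9), Ctsb (45.1), Ctsa (29.8), Ctsh (24.1), Ctss (16.4), Ctsc (3.11) and Ctsk (2.0). In this order the libraries of neighbours overlapped except between Cst3 and Ctsl, Ctsb and Ctsa, and Ctss and Ctsc. In UUO Ctss stood at 285 CPM per kb, followed by Ctsd (261), Cst3 (195), Ctsb (86.8), Ctsz (76.3), Ctsl (71.7), Ctsa (34.3), Ctsh (24.3), Ctsc (20.8) and Ctsk (20.3). Neighbours overlapped there except between Cst3 and Ctsb, Ctsl and Ctsa, and Ctsa and Ctsh. The order at the top depends on the length used: with the longest transcript Ctsd (288), Cst3 (287) and Ctss (286) lay together in UUO, and in sham Cst3 (170) lay above Ctsd (142). With all exons the order in UUO_Si differed from that in UUO by an exchange of Ctsl (70.6) and Ctsz (67.7), whose ranges overlapped in both groups.

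The summed level of the 9 cathepsins was 363 ± 26.8 CPM per kb in sham and 880 ± 140 in UUO. Ctss made up 4.64% ± 2.36 of it in sham and 32.7% ± 3.09 in UUO. The share of Ctsl was 17.0% ± 1.20 and then 8.17% ± 0.83, and that of Ctsd 35.4% ± 1.05 and then 29.4% ± 1.64. The ratio of this sum to the Cst3 level was 3.06 to 3.30 in sham and 3.97 to 5.60 in UUO, without overlap. Its highest 3 values, 5.20, 5.30 and 5.60, were those of the obstructed receptor-gene libraries. On the silicon diet the sum was 855 ± 157 CPM per kb, the share of Ctss 33.2% ± 4.84 and the ratio 4.27 to 5.20, inside the UUO range. As a score over the chosen genes this ratio was given no test, and transcript levels are not amounts of active enzyme or inhibitor. The sum includes Ctsd and Ctsa, which do not encode cysteine proteases.

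**Figure D2:**
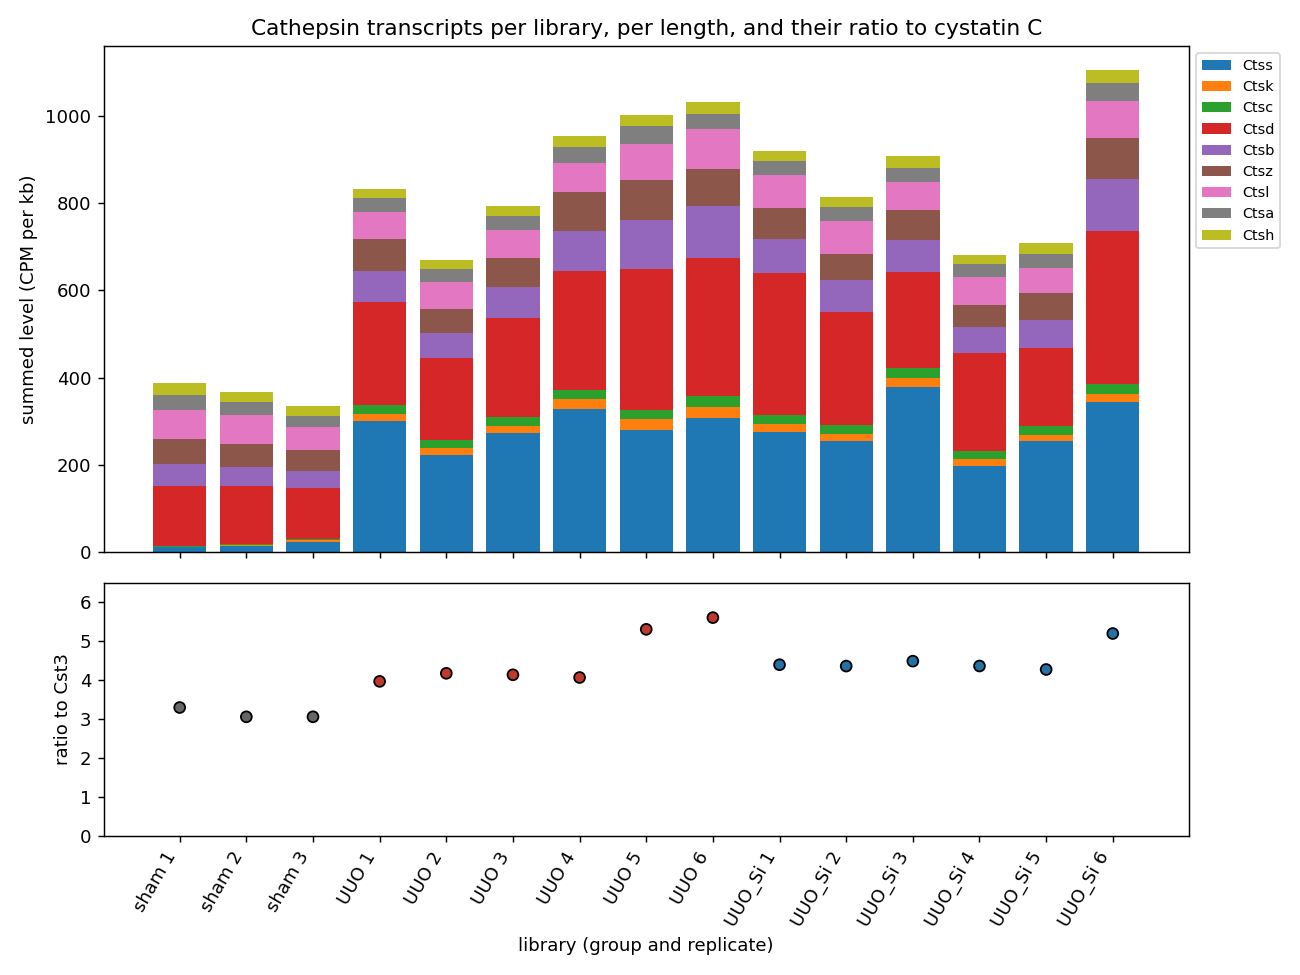
Upper panel: summed cathepsin level in CPM per kb (stacked bars starting at 0, 1 bar per library, colours by gene). Lower panel: the ratio of that sum to the Cst3 level in the same library. The Ctss block is a thin band in the 3 sham bars and the largest or next to largest block in the obstructed bars, and the ratio lies above 3.9 in each obstructed library.

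Between the diets none of the 10 genes passed the test. edgeR's quasi-likelihood test called 0 of the 16752 genes (0%) between UUO_Si and UUO; 626 had an unadjusted p below 0.05, none of them among the 10. DESeq2 called 2 genes and none of the 10, and limma-voom called none of the 10. The median difference of the 10 was -0.03, and each adjusted p was 0.999. The widest limits of the 10 intervals were -0.59 and 0.35, so changes of up to 1.28-fold upwards or to 0.665 of the UUO level lie within what these libraries allow, and the tests do not show that the diets act alike.

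Cathepsin K had the largest difference between the diets. Ctsk ran from 20.5 over a median of 26.5 to 29.6 CPM in UUO_Si, against 23.0, 30.1 and 38.2 in UUO. All 6 UUO_Si libraries lay below the upper 3 UUO libraries and overlapped the lower 3. The difference was -0.24 (95% interval -0.59 to 0.10; unadjusted p = 0.155). Without the 4 receptor-gene libraries it was -0.10.

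The summed level of 12 fibroblast markers moved with that split. Their sum was 5775 to 6127 CPM in UUO replicates 1 to 3, 9619 to 10720 in UUO replicates 4 to 6 and 4899 to 6880 in UUO_Si. The largest parts of it in UUO were the collagen genes Col3a1, Col1a1 and Col1a2, with means of 2788, 2210 and 1835 CPM. Between the diets all 12 markers lay below 0 (median -0.50), and none passed the adjusted test. Pdgfra differed least (-0.05). Of the 12 markers 9 had an unadjusted p below 0.05, against 626 of all 16752 genes tested. The part of the fibroblast markers in the Ctsk difference was not tested.

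For the other genes the diet groups lay over each other. Ctss ran from 268.5 over a median of 359.4 to 514.8 CPM in UUO_Si, a wider spread than in UUO, with a difference of -0.01 (95% interval -0.37 to 0.35). Ctsc ran from 104.5 over 119.8 to 136.6 CPM (0.01, -0.24 to 0.26), and Cst3 from 197.2 over 246.1 to 269.0 CPM (-0.05, -0.25 to 0.16). Cathepsin C and cystatin C thus had the tighter limits among the genes that rose.

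Ctsd ran from 421.2 over a median of 569.4 to 823.1 CPM in UUO_Si, with a difference of -0.01 (95% interval -0.35 to 0.34). Ctsb ran from 352.8 over 443.9 to 719.3 CPM (-0.16, -0.55 to 0.24), and Ctsz from 74.3 over 94.5 to 135.8 CPM (-0.17, -0.47 to 0.13). In each of these 3 genes UUO_Si replicate 6, the receptor-gene library, was the highest of its group, as it was for Ctsl, Ctsa, Ctsh and Cst3. Ctsl (-0.02, -0.28 to 0.24), Ctsa (-0.06, -0.29 to 0.16) and Ctsh (0.02, -0.19 to 0.22) complete the set.

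**Figure D3:**
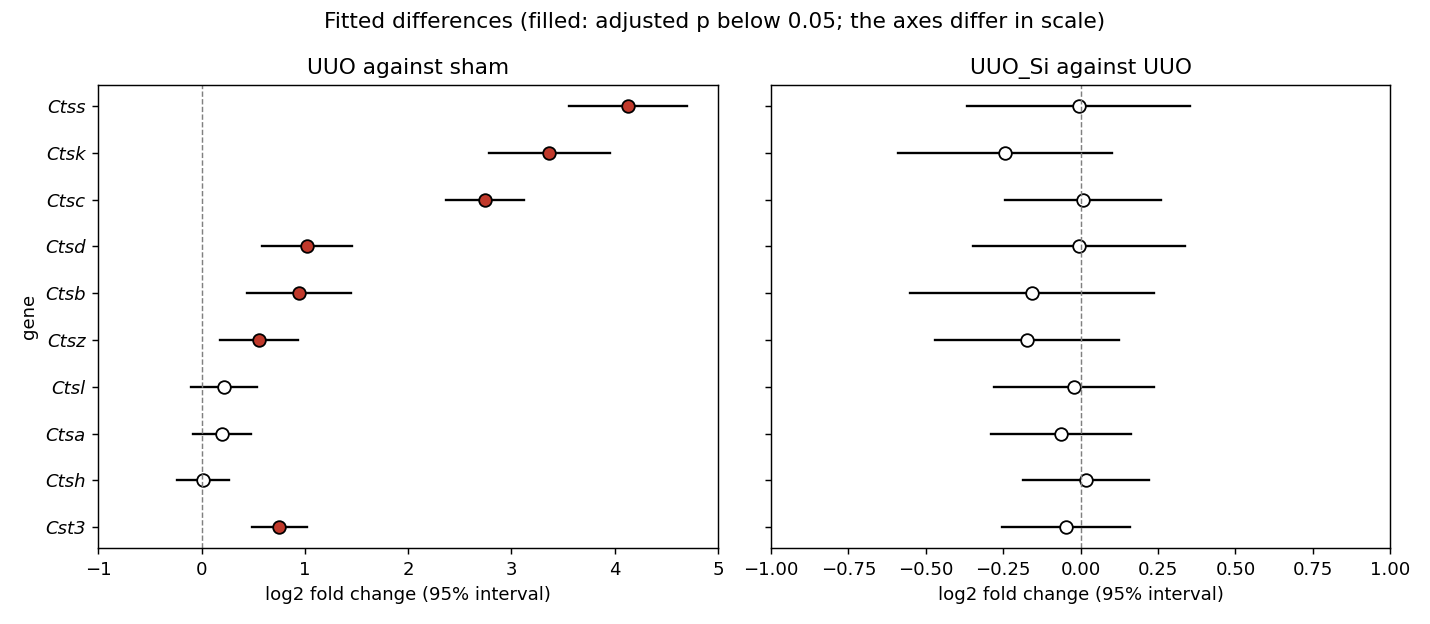
Log2 fold changes (points) with 95% intervals (lines) for UUO against sham on the left and UUO_Si against UUO on the right, filled where the adjusted p was below 0.05; the horizontal axes differ in scale. On the left 7 genes are filled, from Ctsz at 0.55 to Ctss at 4.13, and on the right every interval includes 0.

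Obstructed kidneys on the silicon diet were also set against sham. This comparison uses the sham libraries of the first and the UUO_Si libraries of the second, so its values are given beside theirs and count as no separate support. Of the 10 genes 6 rose and none fell; 52.7% of all genes were called, 27.2% higher. The changes were 4.12 for Ctss, 3.12 for Ctsk, 2.75 for Ctsc, 1.02 for Ctsd, 0.79 for Ctsb and 0.71 for Cst3, and for these 6 the libraries did not overlap (45.7% of all genes). Ctsz at 0.38 did not pass (adjusted p = 0.0803), although it passed on normal diet; the difference between the diets was itself not called. Of 26 alternatives 2 called Ctsz here: upper-quartile scaling (0.45, adjusted p = 0.0375) and leaving out UUO_Si replicate 4 (0.45, adjusted p = 0.0391). Without the 4 receptor-gene libraries its change was 0.21 (adjusted p = 0.268).

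For 2 of the 10 genes the 3 obstructed receptor-gene libraries did not overlap the other 9 obstructed libraries, against 25.3% of all genes tested, so the members' share was near the background. Ctsb was at 677 to 719 CPM in the 3 and at 348 to 550 in the other 9. Ctsl was at 539 to 594 against 376 to 501 CPM. The other 8 genes overlapped between these sets, which were formed after receptor counts and not by group. Only 1 of the 4 was a sham library, so obstruction could not be compared within them. Among the other 11 libraries 7 of the 10 genes were called in UUO against sham, Ctsz with an adjusted p of 0.0494. In that fit 57.4% of all genes were called, and 30.1% were called higher.

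Cells of the immune system and fibroblasts contribute to an obstructed kidney, and in whole tissue more cells of a type cannot be told apart from more RNA per cell. Macrophage markers summed to between 167 and 297 CPM in sham, between 1466 and 1791 in UUO and between 1315 and 1932 in UUO_Si. All 18 rose (17 without the 4 receptor-gene libraries), and none was at 0 throughout a group. Csf1r, the receptor for the main macrophage growth factor, rose by 1.47 ± 0.09 (72.2 ± 7.11 to 200 ± 7.84 CPM), and Lyz2, the lysozyme of myeloid cells, by 5.003 ± 0.27 (12.01 ± 4.49 to 382 ± 53.4 CPM). MHC class II genes and partners rose in 8 of 8 (median 2.94), among them the cathepsin S substrate Cd74 at 3.31 ± 0.25. Of 8 dendritic cell markers 5 rose (7 without the 4 receptor-gene libraries). Lymphocyte (T and NK cell) markers rose in 5 of 13, which became 9 without the 4 receptor-gene libraries and 10 without sham replicate 3.

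Fibroblast markers rose in 11 of 12, from 375 to 551 CPM in sham to 5775 to 10720 in UUO. Of the osteoclast genes, beside which cathepsin K is usually counted, 4 of 7 tested rose. Their sums were 70.2 to 75.2 CPM in sham and 114 to 132 in UUO. Acp5, the osteoclast acid phosphatase, did not pass in UUO (-0.52, adjusted p = 0.194). Without the 4 receptor-gene libraries 6 genes of this list were called higher and 1 lower. In UUO_Si against sham 4 were called higher and 1, Acp5, lower (-0.87), a fall lost under several settings. Neutrophil markers rose in 1 of 5 tested and summed to 12.6 to 35.4 CPM in sham and 19.5 to 36.5 in UUO. Proximal tubule markers fell in 16 of 16; they summed to 21160 to 24280 CPM in sham, to 1120 to 2289 after obstruction on normal diet and to 850 to 2578 on the silicon diet. The part of these cell types in the changes of the 10 genes was not tested.

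**Figure D4:**
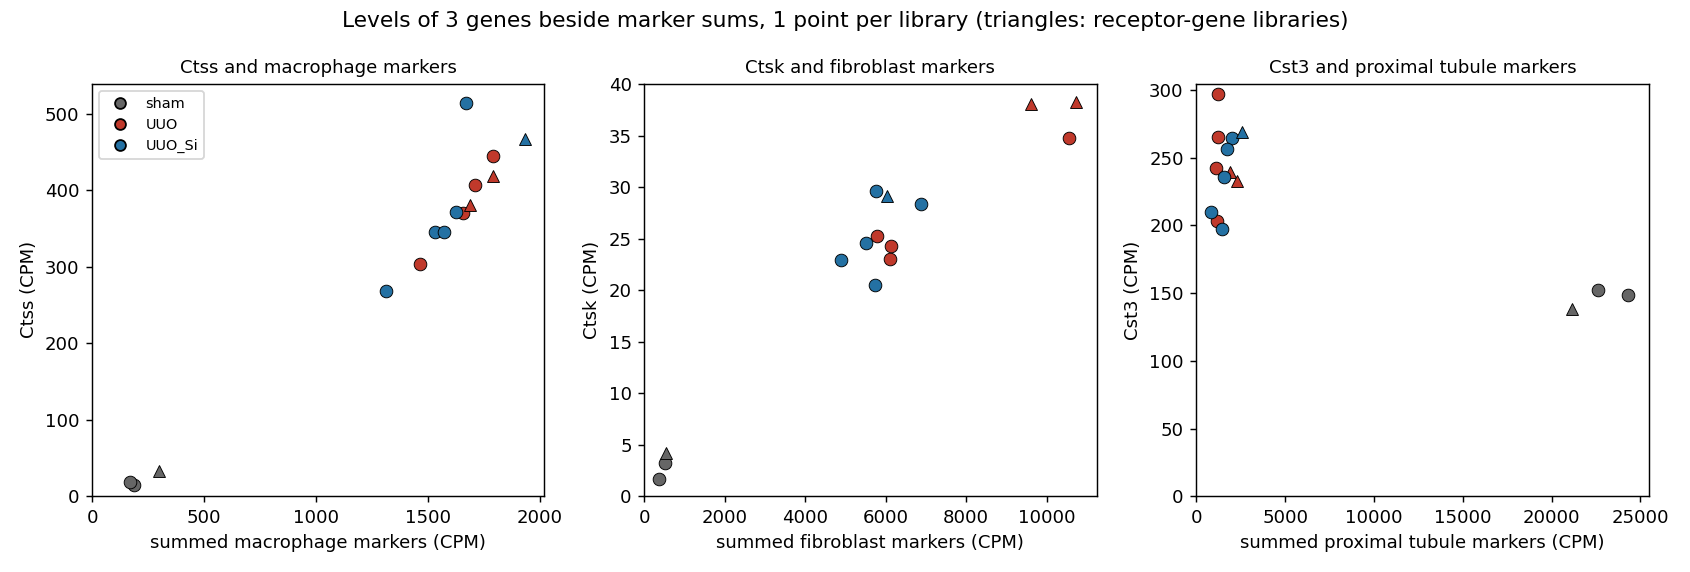
Level of 1 gene (vertical axes, CPM) against the summed CPM of a marker list (horizontal axes), 1 point per library, coloured by group with triangles for the receptor-gene libraries. Ctss lies with the macrophage sum, low in sham and high in obstruction; the upper 3 Ctsk points are the 3 UUO libraries with fibroblast sums of 9619 CPM and over; Cst3 is higher and the proximal tubule sum lower in the obstructed groups than in sham.

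Other lysosomal proteases moved both ways. Of 12 listed 11 were tested; 3 rose, 4 fell and 4 did not pass (median 0.01). Napsa, the aspartic protease napsin A of proximal tubule, fell by 3.54 on the log2 scale (1474 ± 205 to 127 ± 40.8 CPM; adjusted p = 2.63e-08). Dpp7 fell by 1.35, the cathepsin Ctsf by 0.86 and the asparaginyl endopeptidase Lgmn, which also trims other cathepsins, by 0.56. Ctso rose by 0.92 ± 0.12, Prcp by 0.71 ± 0.13 and the low-level Ctse by 1.92 ± 0.45 (1.84 to 6.87 CPM). Of the cathepsins outside the set Ctso and Ctse thus rose, Ctsf fell, and Ctsw did not pass (0.12, adjusted p = 0.812).

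Other inhibitors were mostly too low to test. Of 14 cystatins and kininogens 5 were tested. The kininogens, secreted precursors of bradykinin that also inhibit cysteine proteases, fell: Kng2 by 2.42 (428 ± 28.0 to 80.0 ± 5.19 CPM) and Kng1 by 1.36. Cystatin B, the inhibitor inside the cell, rose with Cstb at 0.98 ± 0.24 (17.3 ± 1.76 to 34.1 ± 7.65 CPM; adjusted p = 0.00215). Fetub (-0.97, adjusted p = 0.101) and Cst7 (-0.33, adjusted p = 0.689), at 1.17 and 0.822 CPM in UUO, did not pass.

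The lysosome as a whole showed no single direction. Of 33 lysosomal hydrolases and cofactors 11 rose, 7 fell and 15 did not pass (median 0.11). Both directions were common over all genes too, where 4609 of 16752 rose and 4427 fell. Hexa, a subunit of hexosaminidase, rose by 1.73 ± 0.21, the glucuronidase Gusb by 1.62 ± 0.14 and the phospholipase Pla2g15 by 1.47 ± 0.11. Beside Neu1 and Glb1, Galc fell by 0.69, Smpd1 by 0.61, Gm2a by 0.51, Arsb by 0.46 and Aga by 0.44. The count of falls was 12 without the 4 receptor-gene libraries and 4 without sham replicate 1 or 2.

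Among lysosomal membrane genes 6 of 14 rose, led by the leukocyte genes Laptm5 (3.13 ± 0.18) and Cd68 (2.41 ± 0.34), with Scarb2, the carrier of glucocerebrosidase, at 1.29 ± 0.10 and the cholesterol exporter Npc1 at 0.88 ± 0.09. The calcium channel gene Mcoln1 fell by 0.42, a call that was lost under several settings (0 to 3 falls in the list). Subunits of the proton pump, which acidifies the lysosome and in the kidney also the urine, fell in 8 of 15 and rose in none (median -0.31). Without the 4 receptor-gene libraries 10 were called lower. Atp6v1a fell by 1.26 (392.2 ± 11.3 to 164 ± 36.2 CPM), and Atp6v1g1, Atp6v1e1 and Atp6v0c by 0.94, 0.84 and 0.83.

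Receptors and enzymes that bring cathepsins and cystatin C to the lysosome moved both ways. The uptake receptor of the proximal tubule fell in all 3 parts: Lrp2 (megalin) by 3.72, from 7037.5 ± 384 to 535 ± 147 CPM, Cubn (cubilin) by 3.36 and Amn by 2.73. The endocytic adaptor Dab2 fell by 0.74. The mannose 6-phosphate receptors did not pass (M6pr 0.20, adjusted p = 0.349; Igf2r -0.12, adjusted p = 0.354). Gnptab and Nagpa, which make the mannose 6-phosphate tag, rose by 0.94 ± 0.08 and 0.59 ± 0.14, and the sorting receptor Sort1 by 0.67 ± 0.13. Gnptg, the gamma subunit of the enzyme to which Gnptab contributes, fell by 1.18 on the log2 scale (42.3 ± 6.19 to 18.7 ± 3.64 CPM; adjusted p = 9.91e-06). In all 3 rose, 5 fell and 2 did not pass of 10.

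The MiT/TFE family of 4 factors includes the lysosomal regulators Tfeb and Tfe3. Tfe3 rose by 0.80 ± 0.09 and Mitf by 0.66 ± 0.08, while Tfec fell by 1.22 and Tfeb by 0.55. Without sham replicate 2 only 1 of these falls was called. No gene of any of these lists was called between the diets.

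Genes whose log2 levels followed each member most closely over the 15 libraries were found among 12897 genes, by the root mean square difference after centring each gene. For Ctss these were Fcer1g (0.17 log2 units), an immunoglobulin receptor chain of myeloid cells, Vcam1 (0.19) and Cd44 (0.24). For Ctsk they were the complement gene C1qb (0.18), Basp1 (0.18) and Antxr1 (0.20), and for Ctsc Plek (0.14), Gm13212 (0.15) and Tgfbi (0.16). Ctsb lay closest to Rps4x (0.08), Gnb2l1 (0.10) and Rps24 (0.10), and Ctsd to Impdh2 (0.12), Rpl36a (0.12) and Rps15a (0.13); the Rps and Rpl genes encode ribosomal proteins. The single nearest genes of the other members were Stt3b (0.09) for Ctsl, Prkaca (0.08) for Ctsa, Hdlbp (0.09) for Ctsh, Rpl19 (0.10) for Ctsz and Chmp4b (0.09) for Cst3. Within the set the closest pairs were Ctsa with Ctsh (0.13), Ctsa with Ctsl (0.15), Ctsa with Ctsz (0.18) and Ctsb with Ctsd (0.18), while the neighbours Ctsk and Ctss differed by 0.46. Such likeness over 3 groups takes in the change with obstruction for the genes that rose, as well as the spread between libraries. How much each adds was not tested.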

How the data were processed

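The deposited table holds expected counts per gene symbol for 15 libraries; per the labels' protocols, kidney RNA was taken up with an RNeasy kit and made into libraries with a stranded total RNA kit. TopHat2 2.1.1, Cuffdiff 2.2.1 and mm10 are listed per the submitters' processing notes. What each tool did, the strand setting and the annotation are not given in the sources used here. Expected counts were rounded. Genes passing edgeR's filter (minimum count 10) were scaled with TMM and fitted in a single model of 15 libraries with edgeR 4.0.16 (quasi-likelihood, robust; R 4.3.3), with Benjamini-Hochberg adjustment over 16752 genes. SE was worked back from the F statistic. Alternatives used other scalings and filters, DESeq2 1.42.0, limma 3.58.1, a replicate block, 2-group fits and left-out libraries. The steps were tested on simulated data. No pair of replicates was a copy (chi-square per gene at least 3.96). All deposited columns were used.

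The members and gene lists were chosen with earlier results of these data known. All members are named; from each other list up to 4 genes with the smallest p in UUO against sham and those called against most of their list were named. Lgmn, Ctsw, Acp5, Cst7, M6pr, Igf2r, Gnptg and Dab2 were added for their roles after their values were seen. Likeness was screened in genes of at least 5 CPM. Positions and exon lengths are from GENCODE M21 on GRCm38, promoter sequences from RefSeq on GRCm38.p6; the motifs were chosen with the sequences in view.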

Additional observations from a re-analysis of the deposited data

Results flagged for a closer look

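Dixon's test was applied to each gene in UUO and in UUO_Si, 20 groups of 6 libraries in all; chance sets apart about 1 in 20 such groups. In 2 of them a single library stood far from the rest, and both times it was UUO_Si replicate 6, a receptor-gene library. Ctsa was at 194.3 CPM there and at 155.1 CPM in the next highest library (gap 0.687 of the range). Ctsb was at 719.3 CPM there and at 479.8 CPM in the next highest (gap 0.653 of the range). In UUO the receptor-gene libraries, replicates 5 and 6, also held the highest Ctsb values (677.3 and 718.6 CPM), and being 2 of 6 they did not meet the criterion. The part of whatever sets these libraries apart in the 2 values was not tested.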

How the results depend on the processing

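The 6 genes Ctss, Ctsk, Ctsc, Ctsd, Ctsb and Cst3 kept their rise and call against sham, in UUO and in UUO_Si, under all 26 alternatives. Over these, 7719 to 9928 genes were called for UUO against sham and 7693 to 9866 for UUO_Si against sham; among the members 6 to 8 and 6 to 7 were called. Between the diets no member was called under any alternative, and 2 genes in all were called by DESeq2.

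Small differences changed sign. For Ctsh in UUO against sham the value was -0.024 with a stricter filter, -0.055 with limma-voom, -0.106 without the 4 receptor-gene libraries and -0.064 without libraries coded RM6 and RM7 (-0.038 to 0.083 leaving out 1 library); in UUO_Si against sham it was -0.0024, -0.050, -0.065 and -0.023 (-0.025 to 0.101). Without the 4 receptor-gene libraries Ctsl in UUO against sham was -0.048 and Ctsa in UUO_Si against sham -0.054. Between the diets Ctsd was 0.035 with limma-voom and 0.061 without either set of libraries (-0.111 to 0.081 leaving out 1), and Ctsl 0.060 and 0.082 (-0.084 to 0.056). Leaving out 1 library gave -0.030 to 0.046 for Ctsc, -0.032 to 0.070 for Ctsh, -0.106 to 0.079 for Ctss and -0.097 to 0.013 for Cst3. The cause was not tested. Of 2340 list counts under alternatives 61 moved by over 1.5 times.

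The labels do not say that a replicate number pairs libraries of different groups. Same-numbered libraries correlated from -0.551 to 0.792 in their deviations from the group mean. The highest value was that of UUO replicate 6 with UUO_Si replicate 6, both receptor-gene libraries. With a replicate block 6 members were called in UUO against sham, Ctsz being 0.42 (adjusted p = 0.0518), and Ctsh was -0.057 there and -0.040 in UUO_Si against sham.

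With the longest transcript as length the cathepsin to cystatin C ratio was 2.46 in sham, 3.43 in UUO and 3.41 in UUO_Si, lower than with all exons (3.14, 4.54 and 4.51) in each group, and the order of sham below both obstructed groups was unchanged. Upper-quartile scaling moved the median of all genes by 0.07 against sham. With 12 to 22 counts per sham library, depth limits the fold of Ctsk. UUO holds the code series RM3 and RM6, UUO_Si holds RM4 and RM7, and sham RM1. The RM6 and RM7 libraries are the 3 obstructed receptor-gene libraries, so the sets without them and without the 4 receptor-gene libraries differ only by sham replicate 3. No series spans groups, so a difference between series of different groups cannot be told apart from the group.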
